A study of Homo sapiens with 8 samples.

Results

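The genes described here encode the aminoacyl-tRNA synthetases, measured in MDA-MB-231 cells, a human triple-negative breast cancer line derived from a pleural effusion. All rows of the expression table with exactly 1 gene symbol that names a synthetase were taken. This gave 34 genes among the 22109 genes tested, held by 41 probe sets of 53617 on the array. Of the 34, 19 are cytosolic, 2 of which (GARS1 and KARS1) also serve mitochondria, and 15 are mitochondrial and carry the suffix 2 in their symbols. SARS2 had no usable row and was not analysed here. Total RNA was hybridised to Affymetrix Human Gene 2.1 ST arrays, with 3 untreated control samples, 3 samples labelled low and 2 samples labelled high, harvested at 24 h. The titles and the treatment protocol name a wild yam (Dioscorea villosa) root extract made in ethanol, at 15 µg/mL for low and 30 µg/mL for high, both described as sublethal. The source names and treatment fields contradict this: there, the low samples had 128 µg/mL of a Boswellia serrata extract, and the high samples had 46 µg/mL of 3-O-acetyl-β-boswellic acid. Either way the same samples form each group, but high and low may differ in dose or in agent. Low and high are therefore used only as group names. No vehicle is named for the controls, and all groups are of 1 cell line. Whether replicates came from separate cultures is not stated, and p-values then measure only the spread between these samples, which may be technical.

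A synthetase joins an amino acid to its cognate tRNAs (EPRS1 serves both glutamate and proline), the step that fixes the genetic code during translation. Cytosolic enzymes supply the ribosomes of the cytosol, and a nuclear-encoded mitochondrial set supplies the ribosomes that make the proteins encoded by mitochondrial DNA. The enzymes fall into class I and class II by the fold of the catalytic domain, and several cytosolic ones sit in a multisynthetase complex held together by the AIMP scaffold proteins. When uncharged tRNA accumulates, the kinase GCN2 phosphorylates eIF2α, translation of the transcription factor ATF4 rises, and ATF4 induces many cytosolic synthetase genes through C/EBP-ATF response elements in their promoters.

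The core of that element was searched in promoter windows because it is the sequence through which the cytosolic genes are known to respond. RefSeq windows of 300 bases on GRCh38.p14, from 250 bases before to 50 bases after the start site, were found for 29 of the 34 genes. AARS2, LARS1, VARS1, VARS2 and YARS1 had no window. The letters TGATGNAA, or TTNCATCA on the other strand, occurred in 7 of 16 cytosolic genes and 1 of 13 mitochondrial genes, against 3.62% of 35116 windows and 4.46% of 27305 genes with a window. Matches in 6 of these cytosolic genes and in the mitochondrial gene are given below on the strand of the gene, 5′ to 3′, with 15 bases on each side and the match in capitals. ATF3, a stress-induced transcription factor gene, is added for comparison with its own match. A match is a description of the letters and not a measured binding site.
AARS1, chr16:70289671-70289708 (-): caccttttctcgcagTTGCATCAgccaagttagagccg
CARS1, chr11:3057403-3057440 (-): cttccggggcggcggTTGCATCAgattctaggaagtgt
GARS1, chr7:30594830-30594867 (+): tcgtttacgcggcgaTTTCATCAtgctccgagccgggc
MARS1, chr12:57488049-57488086 (+): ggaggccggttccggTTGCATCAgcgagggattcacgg
NARS1, chr18:57621800-57621837 (-): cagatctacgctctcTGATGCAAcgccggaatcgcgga
TARS1, chr5:33440952-33440989 (+): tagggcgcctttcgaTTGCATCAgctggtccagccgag
YARS2, chr12:32756072-32756109 (-): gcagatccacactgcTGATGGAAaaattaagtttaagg
ATF3, chr1:212565201-212565238 (+): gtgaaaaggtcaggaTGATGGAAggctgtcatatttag
In 5 of these 6 cytosolic genes the variable base made the core TGATGCAA when read on the strand that matches, and GARS1 carried TGATGAAA. The E-box CACGTG, which reads the same on both strands, was present in 4 of the 29 genes, against 7.26% of windows and 8.78% of genes with a window.

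The arrays of a group did not sit level. The 75th percentile of the tested genes lay between 4.90 and 4.94 in controls 1 and 2 and low 1 and 2, at 4.73 in control 3, 4.54 in low 3, 4.80 in high 1 and 4.54 in high 2 (log2 values as deposited). Correlations within groups ran from 0.972 to 0.994. The synthetase genes moved with these arrays. Control 3 was below the mean of controls 1 and 2 in 30 of 34 genes, with a median gap of -0.40, and low 3 was below low 1 and 2 in 34 of 34, with a median gap of -0.34. High 2 was below high 1 in 33 of 34 genes, with a median gap of -0.29. Controls 1 and 2 differed from each other by a median of 0.08. Where leaving out these arrays changes a call, the value without them is given as well. The 7 markers of the line (VIM, CD44, AXL, MSN, LGALS1, CAV1 and KRT18) lay at percentiles 71.4 to 99.9 of all genes, whereas 5 genes that the line should lack or express weakly lay at 13.2 to 76.6, with EPCAM highest. Leukocyte (4 genes), endothelial (4 genes) and adipocyte (5 genes) markers lay no higher than percentile 55.5. The summed log2 level of the leukocyte markers was 6.72 and 7.97 in high samples and 7.25 to 7.56 in low samples. In control samples it was 6.78 to 6.91. These 4 genes lay at percentiles 6.4 to 45.7, and 0 had an unadjusted p under 0.05 in either group against control (limma). The part of this summed level in the results was not tested. In such bulk samples fewer cells of a type and less RNA per cell cannot be told apart. The table holds no background measure, so a dim gene cannot be told from an absent one.

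**Figure D1:**
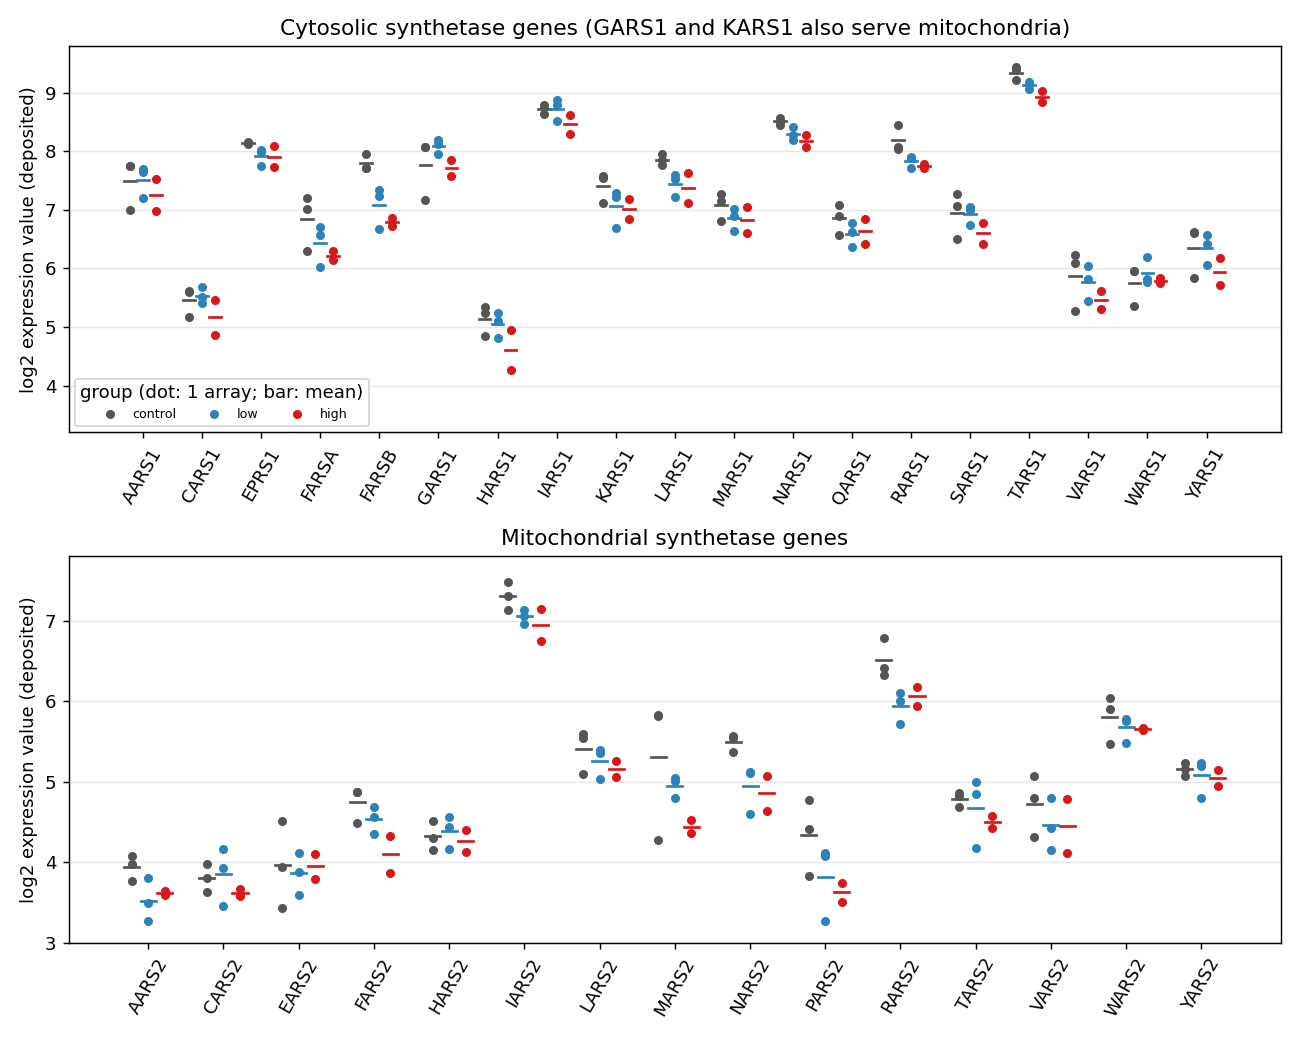
Log2 expression value as deposited (y axis) of each synthetase gene (x axis, in alphabetical order) on each array, with dots for single arrays and bars for group means, in the order control (3), low (3) and high (2). The FARSB arrays of the low and high groups lie below all control arrays, and 1 MARS2 control array lies just below the high arrays; heights of different genes come from different probe sets and are not comparable.

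In cells of the high group, 33 of the 34 synthetase genes had a lower mean than in control cells, a count that was 28 after quantile normalization and 30 after centring of the array medians. No gene was called by limma at an adjusted p under 0.05 over all 22109 genes, in either direction. At an unadjusted p under 0.05, 11 genes were lower and 0 higher. After quantile normalization only FARSB, FARS2, NARS2 and PARS2 passed that threshold, all lower. Among all genes, 0.389% were called lower and 0.425% higher, and 11.4% were lower at the unadjusted threshold. All 34 synthetases lie at or above the median level of the table. Among the 11055 such genes, 81 were called lower and 90 higher, and the unadjusted share was 18.5%. The median log2 change was -0.33 for the synthetases, -0.12 for all genes and -0.22 for genes at or above the median level. Negative changes made up 67.4% of all genes and 74.1% of those at or above the median level, so a negative sign was common in this comparison. After quantile normalization the median for genes at or above the median level was -0.03, and the medians were -0.18 for cytosolic and -0.11 for mitochondrial synthetases. In 14 of 34 genes every high array was below every control array, against 22.9% of all genes and 30.0% of those at or above the median level.

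**Figure D2:**
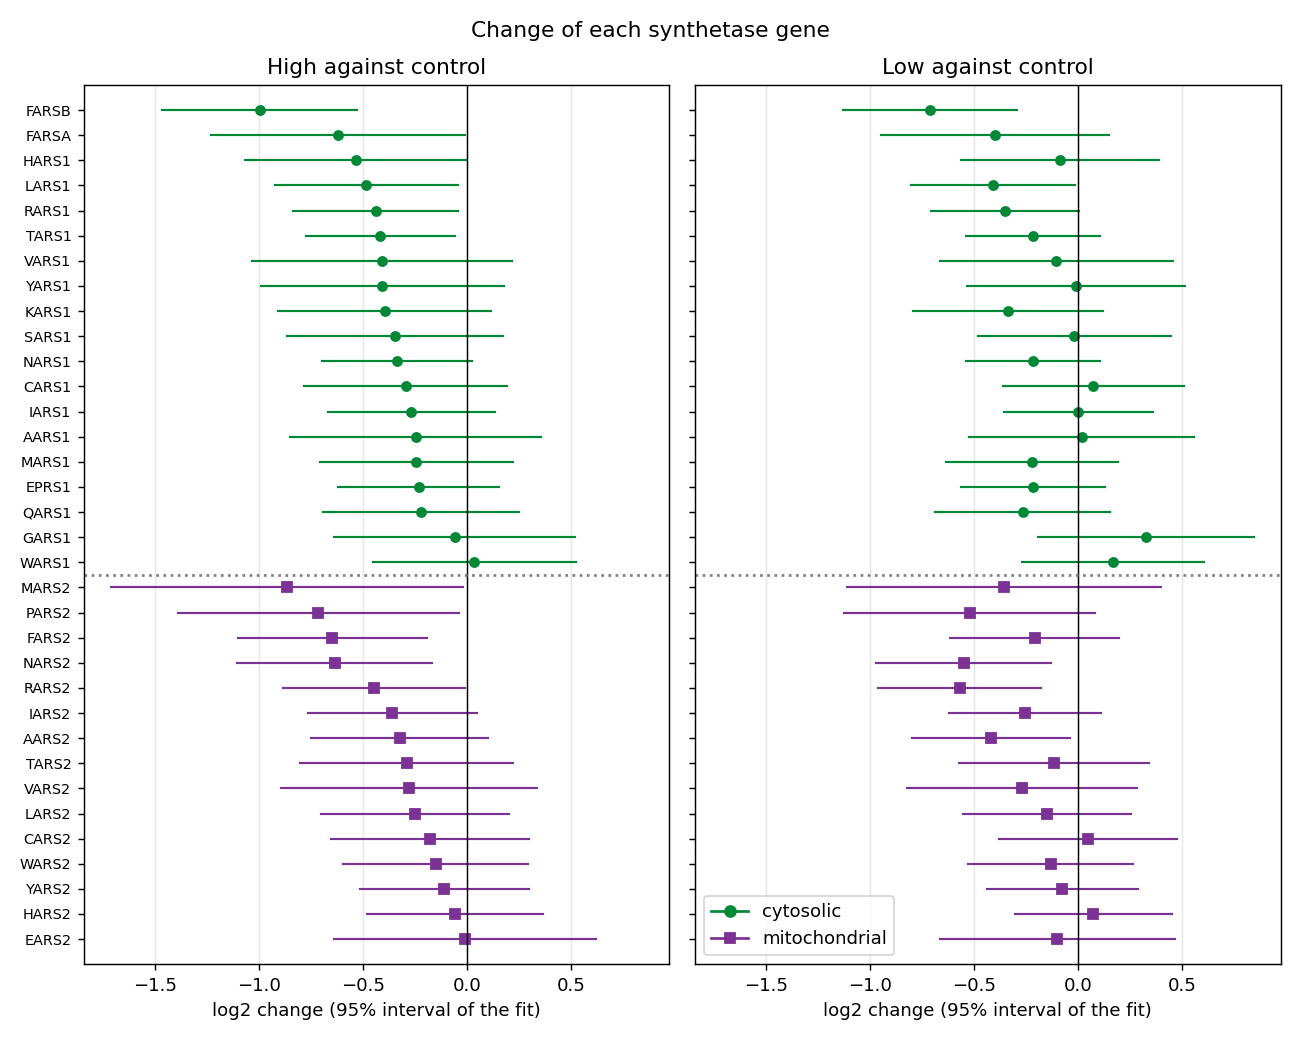
Fitted log2 change of each synthetase gene (x axis) for high against control (left) and low against control (right), with 95% intervals of the limma fit; circles are cytosolic and squares mitochondrial genes. FARSB has the most negative value in both panels, and most intervals include 0.

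FARSB had the most negative value of the family in both treated groups against control, and the other phenylalanyl-tRNA synthetase genes are given beside it. FARSB encodes the β subunit of the cytosolic enzyme, a tetramer of 2 α and 2 β subunits, FARSA the α subunit, and FARS2 the single-chain mitochondrial enzyme. FARSB read 6.87 and 6.73 in high samples, against 7.95, 7.72 and 7.72 in control samples. The groups did not overlap, and the log2 change was -1.0 ± 0.21 (SE), 0.502-fold (limma, adjusted p = 0.0646). Leaving out single arrays gave adjusted p-values from 0.0260 (without low 3) to 0.362 (without high 2), with 0.0288 without control 3. FARSA read 6.30 and 6.14 in high samples, against 7.01, 7.20 and 6.30 in control samples, where control 3 lay just above high 1. Its log2 change was -0.62 ± 0.28 (limma, adjusted p = 0.340), and -0.40 ± 0.25 in low samples (0.542). FARS2 read 4.32 and 3.87 in high samples, against 4.87, 4.88 and 4.48 in control samples. These groups did not overlap either, and the log2 change was -0.65 ± 0.21 (limma, adjusted p = 0.190). In low samples it was -0.21 ± 0.18 (limma, adjusted p = 0.716), the median of the synthetases there.

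Among the other mitochondrial genes, NARS2, which charges asparagine tRNA, read 5.07 and 4.64 in high samples, against 5.56, 5.54 and 5.36 in control samples. Its log2 change was -0.64 ± 0.21 (limma, adjusted p = 0.207). The methionine enzyme MARS2 read 4.37 and 4.52 in high samples, against 5.81, 5.83 and 4.28 in control samples. Here control 3 lay below both high arrays, far from the other controls. The log2 change of -0.87 ± 0.38 (limma, adjusted p = 0.334) became -1.38 ± 0.18 without control 3 (adjusted p = 0.00243). The proline enzyme PARS2 read 3.75 and 3.50 in high samples, against 4.77, 4.41 and 3.83 in control samples, with a log2 change of -0.71 ± 0.31 (limma, adjusted p = 0.314). Without control 3, low 3 and high 2 together, FARSB (-0.97, adjusted p = 0.0272), FARSA (-0.81, 0.0361), PARS2 (-0.85, 0.0476) and MARS2 (-1.46, 0.00834) were called lower by limma, against 4.53% of all genes. That fit leaves 1 high array, which is assumed to vary like the other groups. Without control 3 alone, FARSB and MARS2 were called lower, against 3.35% of all genes. At the other end of the mitochondrial set, EARS2, the glutamate enzyme, had a log2 change of -0.01 (95% interval -0.64 to 0.62), and HARS2, the histidine enzyme, of -0.06 (-0.48 to 0.36).

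Among the cytosolic genes, the threonine enzyme TARS1 read 9.02 and 8.84 in high samples, against 9.44, 9.38 and 9.22 in control samples, with a log2 change of -0.42 ± 0.16 (limma, adjusted p = 0.274). RARS1 charges arginine tRNA within the multisynthetase complex. It read 7.78 and 7.71 in high samples, against 8.07, 8.04 and 8.45 in control samples, with a log2 change of -0.44 ± 0.18 (limma, adjusted p = 0.295). Control 3 was the highest control here, as it was for RARS2, IARS2 and LARS1, whereas in the other 30 genes it lay below the mean of controls 1 and 2. LARS1, the leucine enzyme and a leucine sensor for mTORC1, read 7.62 and 7.12 in high samples, against 7.85, 7.77 and 7.95 in control samples, with a log2 change of -0.48 ± 0.20 (limma, adjusted p = 0.296). None of these 3 genes had overlapping arrays. WARS1, the tryptophan enzyme, was the only gene with a positive value, 0.04 (95% interval -0.45 to 0.52), and GARS1, the glycine enzyme, stood at -0.06 (-0.64 to 0.52). Without control 3 these values were -0.17 for WARS1 and -0.36 for GARS1, neither called.

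In cells of the low group, 27 of 34 synthetase genes had a lower mean than in control cells, 25 after quantile normalization, 26 after centring, 20 without low 3, and 23 without control 1 or without control 2. Negative changes made up 57.4% of all genes and 58.1% of those at or above the median level. No gene was called by limma in either direction, while 5 were lower and 0 higher at an unadjusted p under 0.05. Of all genes, 1.81% were called lower and 1.19% higher, and 8.77% were lower at the unadjusted threshold. Among the 11055 genes at or above the median level, 384 were called lower and 254 higher, and the unadjusted share was 14.9%. The median log2 change was -0.21 for the synthetases, -0.04 for all genes and -0.07 for genes at or above the median level. Every low array was below every control array in 8 of 34 genes, against 13.0% of all genes and 18.8% of those at or above the median level. Both treated groups were set against the same 3 controls, so their values are not independent.

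FARSB read 7.34, 7.23 and 6.68 in low samples, against 7.95, 7.72 and 7.72 in control samples, without overlap. Its log2 change was -0.71 ± 0.19 (limma, adjusted p = 0.0774). RARS2, the mitochondrial arginine enzyme, read 6.10, 6.0 and 5.72 in low samples, against 6.41, 6.33 and 6.78 in control samples, also without overlap. Its log2 change was -0.57 ± 0.18 (limma, adjusted p = 0.139). NARS2 read 5.11, 5.12 and 4.59 in low samples, against 5.56, 5.54 and 5.36 in control samples, and its log2 change was -0.55 ± 0.19 (limma, adjusted p = 0.190). AARS2, which charges alanine tRNA in mitochondria, read 3.49, 3.80 and 3.27 in low samples, against 3.98, 4.07 and 3.77 in control samples. Low 2 lay just above control 3 there, and the log2 change was -0.42 ± 0.17 (limma, adjusted p = 0.290). LARS1 read 7.60, 7.53 and 7.22 in low samples and RARS1 read 7.91, 7.88 and 7.71, all below the control values given above. Their log2 changes were -0.41 ± 0.18 for LARS1 (limma, adjusted p = 0.327) and -0.35 ± 0.16 for RARS1 (adjusted p = 0.359). GARS1 had the most positive value, 0.33 ± 0.24 (limma, adjusted p = 0.624), with 8.13, 8.19 and 7.96 in low samples, against 8.07, 8.07 and 7.17 in control samples. Without control 3 it was 0.02. MARS2 read 5.05, 5.01 and 4.80 in low samples, and its log2 change of -0.36 ± 0.34 (limma, adjusted p = 0.746) was -0.87 ± 0.16 without control 3 (adjusted p = 0.0133), where 1.85% of all genes were called lower. It was also called without control 3, low 3 and high 2 together (-0.79, adjusted p = 0.0142), against 2.72% of all genes.

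The replicate numbers in the titles changed the calls when they were used as a block. Same-numbered control and low arrays had correlated deviations from their group means (0.10, 0.15 and 0.20), but low 2 correlated with control 1 at 0.12, more than low 1 did. For the high group, with 2 numbers, the pairing is not settled. With the block, limma called 6 genes lower in high samples than in control samples. FARSB (log2 change -1.12, adjusted p = 0.0160), PARS2 (-0.98, 0.0180), FARSA (-0.85, 0.0269), FARS2 (-0.76, 0.0470), MARS2 (-1.16, 0.0475) and NARS2 (-0.75, 0.0478) fell, while 4.66% of all genes were called lower. In low samples the block gave 1 call, FARSB (-0.71, adjusted p = 0.0314), against 2.61% of all genes. Weighting the arrays by their agreement, with weights of 0.31 for control 3 and 0.37 for low 3, gave 3 calls in high samples (FARS2, FARSB and MARS2), against 3.48% of all genes. In low samples it also gave 3 (FARSB, MARS2 and NARS2), against 4.95% of all genes. Across the 17 alternatives, 6 genes were called at least once, all lower, 28 were never called, and none was called higher.

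**Figure D3:**
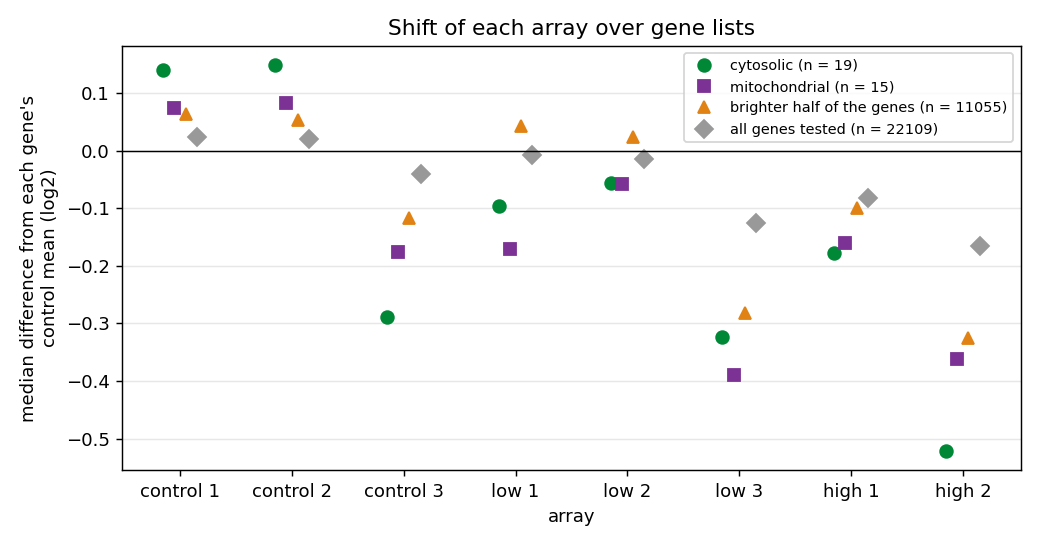
Median deviation from the control mean (y axis, log2) on each array (x axis) for cytosolic synthetases, mitochondrial synthetases, genes at or above the median level and all 22109 genes tested. Control 3, low 3 and high 2 lie below the other arrays of their groups for every set.

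Between the high and low groups, 30 of 34 genes had a lower mean in high samples, but 17 after quantile normalization and 19 without high 2. Negative changes made up 61.6% of all genes and 68.0% of those at or above the median level. No synthetase gene was called by limma, and 0 had an unadjusted p under 0.05. Of all genes, 0.00452% were called in either direction. The smallest p belonged to FARS2, whose high arrays, 4.32 and 3.87, lay below its low arrays, 4.57, 4.68 and 4.35. Its log2 change was -0.44 ± 0.21 (limma, adjusted p = 0.585). The next genes were HARS1 (-0.45 ± 0.24), CARS1 (-0.37 ± 0.22), YARS1 (-0.40 ± 0.27), IARS1 (-0.27 ± 0.18) and GARS1 (-0.38 ± 0.26), all cytosolic and charging histidine, cysteine, tyrosine, isoleucine and glycine tRNAs.

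High 2 was the lowest array of the high and low groups in each of these 6 genes. HARS1 read 4.95 and 4.26 in high samples, against 5.11, 5.24 and 4.82 in low samples. CARS1 read 5.46 and 4.87 in high samples, against 5.68, 5.50 and 5.41 in low samples. YARS1 read 6.18 and 5.72 in high samples, against 6.41, 6.57 and 6.05 in low samples. In each of these genes 1 high array lay within the low range. IARS1 read 8.63 and 8.29 in high samples, against 8.87, 8.80 and 8.52 in low samples, and overlapped in the same way. GARS1 read 7.85 and 7.57 in high samples, below 8.13, 8.19 and 7.96 in low samples. It was 1 of 4 genes without overlap, with FARS2, MARS2 and TARS1, a share below the 16.7% of all genes and 19.9% of genes at or above the median level that were apart and lower. RARS2 had the most positive value, 0.12 (95% interval -0.32 to 0.56).

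Medians of cytosolic and mitochondrial genes against control depended on single arrays. In high samples the median log2 change was -0.34 for the 19 cytosolic genes and -0.29 for the 15 mitochondrial genes, and in low samples -0.22 and -0.21. In high samples they were -0.18 and -0.16 without high 2, and -0.52 and -0.36 without high 1. In low samples, leaving out single arrays gave -0.24 to -0.12 for cytosolic and -0.34 to -0.10 for mitochondrial genes, both most negative without control 3. The difference between the compartments was not tested. Between high and low samples the medians were -0.22 for cytosolic and -0.10 for mitochondrial genes, and the mitochondrial median was 0.05 after quantile normalization. For 14 amino acids both compartments have 1 measured gene each, with EPRS1 counted for glutamate and for proline. In high samples the mitochondrial gene of a pair had the more negative value in 7 of 14 and the cytosolic gene in 7. The gaps ran from the methionine pair, with -0.24 for MARS1 and -0.87 for MARS2, to the histidine pair, with -0.53 for HARS1 and -0.06 for HARS2. In low samples the mitochondrial gene had the more negative value in 10 of 14 pairs, and alanine gave the widest gap, with 0.02 for AARS1 and -0.42 for AARS2. No test was made of these counts.

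Other divisions of the family overlapped widely. The 15 class II genes had a median of -0.40 in high samples and -0.22 in low samples, and the 19 class I genes -0.27 and -0.15. The 7 measured enzymes of the multisynthetase complex had medians of -0.27 in high samples and -0.27 in low samples, and the 12 other cytosolic genes -0.38 and -0.05. Of the scaffold proteins only AIMP1 was measured, with log2 changes of -0.36 ± 0.18 in high samples and -0.46 ± 0.16 in low samples (limma, adjusted p = 0.380 and 0.178). The glutamyl-tRNA amidotransferase genes, whose enzyme makes glutaminyl-tRNA in mitochondria, had log2 changes in high samples of -0.31 for QRSL1, -0.32 for GATB and -0.42 for GATC. In low samples these were -0.52, -0.16 and -0.09. MTFMT, which formylates the initiator methionyl-tRNA that MARS2 charges, had -0.66 in high samples and -0.27 in low samples. None of these 5 genes was called.

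No cytosolic gene known as an ATF4 target passed the test, and neither did any other synthetase. Of all genes, 0.389% were called lower and 0.425% higher in high samples, and 1.81% and 1.19% in low samples. Among the 11055 genes at or above the median level, 81 were called lower and 90 higher in high samples. In low samples these counts were 384 and 254. With the shares in high samples, a list of 13 genes would seldom hold a call. The shares in low samples were larger, and the same does not hold there for all 34 synthetases. The 13 known ATF4 targets had a median log2 change of -0.30 in high samples and -0.02 in low samples, and the 6 other cytosolic genes -0.49 and -0.35. Split by promoter letters, the 7 genes with a TGATGNAA match had medians of -0.27 in high samples and 0.00 in low samples, and the 9 without a match -0.40 and -0.27. All 13 targets had a lower mean in high than in low samples, as had 18 of the 19 cytosolic genes, with a median of -0.26, but EPRS1 and MARS1 changed sign in 6 and LARS1 in 4 of the 17 alternatives. The wider amino acid response list, of which 27 of 28 genes were measured, held genes that did pass the test. In high samples ATF3 (log2 change 2.60 ± 0.34, limma, adjusted p = 0.00660) and DDIT3, the pro-apoptotic factor CHOP (1.67 ± 0.17, 0.00217), rose, and no gene of the list was called lower, while 5 were higher and 7 lower at an unadjusted p under 0.05. In low samples ATF3 (2.66, 0.00189), DDIT3 (1.31, 0.00235), CEBPB (1.36, 0.00771) and PPP1R15A, which encodes a phosphatase subunit that reverses eIF2α phosphorylation (1.33, 0.0286), rose, and none was called lower, while 9 were higher and 6 lower at the unadjusted threshold. Of all 22109 genes, 671 were higher and 2526 lower at the unadjusted threshold in high samples, and 1190 and 1938 in low samples. The list's median was -0.17 in high samples and 0.02 in low samples.

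Other genes of the list, named here after their values were seen, lay on both sides of 0 without passing the test. In high samples PPP1R15A stood at 1.16 (limma, adjusted p = 0.135), CEBPB at 1.11 (0.0699), NUPR1 at 0.81 (0.296) and TRIB3 at 0.31 (0.749), and PYCR1 and PSPH of proline and serine synthesis both at -0.99 (0.103 and 0.0657). ASNS, asparagine synthetase, read 5.05 and 4.71 in high samples, against 5.48, 5.47 and 5.43 in control samples, with a log2 change of -0.58 ± 0.17 (limma, adjusted p = 0.163) and of -0.22 in low samples (0.609). PSAT1, of serine synthesis, read 7.81 and 7.55 in high samples, against 8.81, 8.69 and 8.03 in control samples, with a log2 change of -0.83 ± 0.24 (limma, adjusted p = 0.15). In both genes the high arrays lay below all controls. The mRNA of ATF4 itself, which is regulated largely at translation, had a log2 change of 0.21 in high samples (95% interval -0.20 to 0.63) and 0.24 in low samples (-0.13 to 0.61). ATF3, by contrast, read 5.86 and 5.46 in high samples, against 3.41, 3.56 and 2.21 in control samples.

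**Figure D4:**
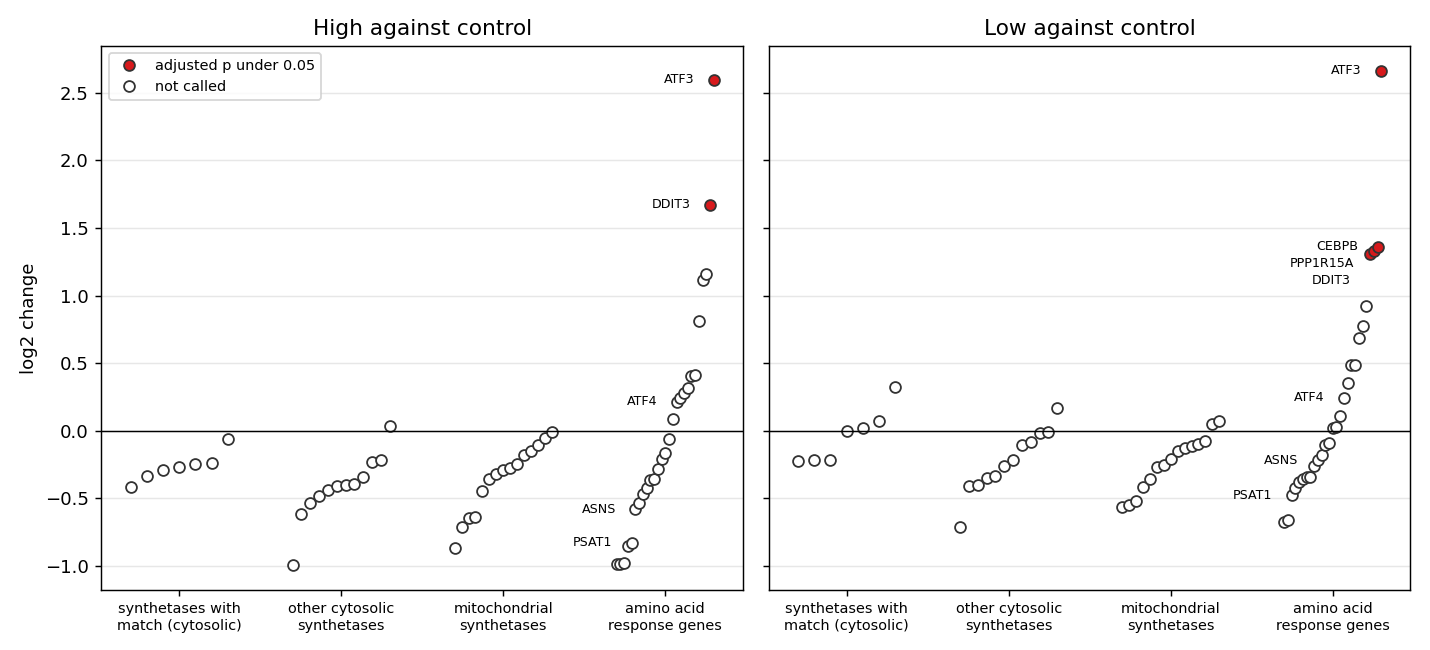
Log2 change (y axis) for high against control (left) and low against control (right) of cytosolic synthetase genes with the response element letters, other cytosolic synthetases, including those with no promoter window, mitochondrial synthetases and the 27 measured amino acid response genes; filled points were called at an adjusted p under 0.05. Called points occur only in the response genes, where ATF3 reaches 2.60 and 2.66, while the synthetases lie between -1.0 and 0.33.

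Steps on either side of aminoacylation gave a few calls. Beside them, 0.389% of all genes were called lower and 0.425% higher in high samples, and 1.81% and 1.19% in low samples. Of 19 amino acid transporters, SLC7A11, the cystine importer, rose by 1.05 in high samples and 0.80 in low samples (limma, adjusted p = 0.0464 and 0.0425). SLC43A2, a transporter of large neutral amino acids, rose by 1.29 in low samples (adjusted p = 0.0167) and had 1.29 in high samples (0.0636). At an unadjusted p under 0.05, 3 transporters were higher and 4 lower in high samples, and 4 and 0 in low samples. Of 21 measured genes for tRNA end processing and export, TSEN15, a subunit of the tRNA splicing endonuclease, fell by 0.94 on the log2 scale in high samples and by 1.0 in low samples (limma, adjusted p = 0.0261 and 0.00466). It read 4.75 and 4.67 in high samples and 4.73, 4.71 and 4.51 in low samples, against 5.61, 5.63 and 5.72 in control samples. TRNT1, which adds the CCA end to which amino acids are joined, fell by 0.99 in low samples (adjusted p = 0.0306) and had -0.79 in high samples (0.168). Of these 21 genes, 8 were lower in high samples and 10 in low samples at the unadjusted threshold, and 0 were higher. Of 19 measured RNA polymerase III genes, whose enzyme transcribes tRNA, POLR3B (-0.96, adjusted p = 0.0129), POLR3F (-0.79, 0.0481) and POLR3G (-0.85, 0.0487) fell in low samples. None was called in high samples. At an unadjusted p under 0.05, 4 of these 19 genes were lower in high samples and 5 in low samples. The medians of these lists were -0.11 in high samples and 0.10 in low samples for transporters, -0.33 and -0.34 for tRNA processing, and -0.34 and -0.23 for polymerase III. None of 11 mitochondrial translation factors, 6 cytosolic elongation factors or 3 proofreading genes was called by limma in high or low samples against control. At an unadjusted p under 0.05, 3, 1 and 2 of them were lower in high samples and 2, 1 and 2 in low samples, where the shares of all genes were 11.4% in high and 8.77% in low samples, and 18.5% and 14.9% at or above the median level.

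Where a gene had several probe sets, they gave 1 sign in high samples against control. Both rows of VARS1, the valine enzyme, were negative, with -0.41 and -0.50 in high samples and -0.11 and -0.25 in low samples. The 7 rows of its mitochondrial counterpart VARS2 ran from -0.35 to -0.14 in high samples and from -0.27 to 0.04 in low samples, and the row used was the lowest of these in low samples. Some VARS2 rows held identical values on every array, so the 7 rows are not separate measurements.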

How the data were processed

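Per the labels, biotin-labelled cDNA from total RNA of 8 samples was hybridised to 1 array each. The authors deposited log2 expression values per probe set, and the log base was inferred from their range, -0.00 to 12.10. They came from the Transcriptome Analysis Console, per the submitters' processing notes; neither its version nor the way probes were summarized and normalized is given in the sources used here. Values were used as deposited. Rows were named through the platform annotation: 23558 carried 1 symbol, 2155 several and 27904 none here, and 22271 matched a RefSeq gene by Entrez identifier. For 618 genes with several rows the row with the highest mean was kept.

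A limma 3.58.1 model (R 4.3.3) with 1 mean per group was fitted to all 22109 genes and 8 arrays, with 5 residual and 6 prior degrees of freedom. P-values were adjusted by Benjamini-Hochberg over all genes and called under 0.05. The number of arrays limits the precision. The scripts were tested on simulated data. The synthetases and the gene lists were chosen with earlier results of these data known. Values on every array are given for called members and, where fewer than 6 were called, for those with the 6 smallest p-values in a comparison; MARS2, FARSA and PARS2 were added after their values were seen. Called members of other lists, at most 4 per direction, and all scaffold and amidotransferase genes are named. Promoter windows are RefSeq's on GRCh38.p14, and 1 match is not reported here. Alternative scalings, filters, fits and left-out arrays were run (17 in all). Control 3, low 3 and high 2 were left out together because earlier results of these data showed them to stand apart.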

Additional observations from a re-analysis of the deposited data

How the results depend on the processing

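Across 17 alternatives, 476 of 510 recomputed values were labelled unchanged, and the cause of the other 34 was not tested. A log2 change had to keep its sign and its side of the threshold, and a median had to move by less than the spread between arrays. A count had only to be of similar size, so 33 and 27 negative changes in high against control passed as unchanged. Some alternatives cannot move a log2 change, such as leaving out a low array in high against control, so 476 overstates the stability. Among the 6 synthetases with the smallest p-values of each comparison no log2 change took the opposite sign, but the mitochondrial median in high against low did under 2 alternatives. Genes picked for small p-values seldom change sign. In high against control most other synthetases kept theirs too, but WARS1 and GARS1 changed sign in 5 and EARS2 and HARS2 in 4 of the 17 alternatives. The count of synthetases called in high against control, 0 as reported, was 1 after quantile normalization, 1 after centring of the array medians, 1 with genes under the median level left out (fewer genes tested), 6 with the replicate block, 3 with array weights and 4 without control 3, low 3 and high 2 together, a fit that leaves 1 high array. Leaving out single arrays gave 0 to 2, with FARSB and MARS2 called without control 3 and FARSB without low 3. The count in low against control, also 0, was 1 after quantile normalization, 1 after centring, 1 with the replicate block, 3 with array weights and 1 (MARS2) without the 3 arrays together. Leaving out single arrays gave 0 to 1, with MARS2 called without control 3. The single call under either scaling was FARSB in both comparisons, with log2 changes after quantile normalization of -0.78 in high samples (limma, adjusted p = 0.0355) and -0.62 in low samples (0.0310). For high against low the count was 0 under every alternative, the replicate block included.

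The mitochondrial median in high against control, -0.29, was -0.11 after quantile normalization. In high against low, -0.10 as reported, it was 0.05 after quantile normalization, and leaving out single arrays gave -0.26 (without high 1) to 0.0025 (without high 2). The number of synthetases with a negative change in high against low, 30, was 17 after quantile normalization and 19 to 33 when single arrays were left out; alternatives for this number were chosen after seeing the data. In high against control the 2 arrays of the high group leave each value resting on each of them.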

Other observations

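TARS3, a cytosolic threonyl-tRNA synthetase paralogue of TARS1 whose symbol falls outside the rule that chose the genes, read 2.00 and 3.22 in high samples and 3.13, 3.41 and 3.33 in low samples, against 2.91, 2.48 and 2.95 in control samples. Every low array lay above every control array, with a log2 change of 0.51 ± 0.27 (limma, adjusted p = 0.452), and the high arrays lay on both sides of the controls, with -0.17 ± 0.30 (adjusted p = 0.847).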
